A study of Homo sapiens with 6 samples.

Results

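The 9 genes described here encode parts of the MHC class I antigen presentation pathway. They were chosen by name from the count table, with earlier results of these data known. They are *HLA-B*, *HLA-C*, *HLA-E*, *B2M*, *TAP1*, *TAP2*, *TAPBP*, *PSMB8* and *PSMB9*, 9 of the 60655 genes in the table. The data were RNA immunoprecipitation sequencing (RIP-seq) libraries from WaGa cells, an established Merkel cell carcinoma (MCC) line that carries Merkel cell polyomavirus, all wild type and untreated. RNA brought down by an antibody to IGF2BP3, an RNA-binding protein also called IMP3, was compared with RNA brought down by a control IgG, with 3 IGF2BP3 IP and 3 IgG IP libraries numbered 1 to 3 in each group. Total input RNA was not analysed here, so a level below is the level of an RNA in a pull-down.

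MHC class I molecules show fragments of a cell's own proteins to CD8+ T cells. Proteasomes cut proteins into peptides, the TAP transporter carries the peptides into the endoplasmic reticulum, and a loading complex that contains tapasin places them on a heavy chain bound to beta-2-microglobulin. Interferon signaling raises most genes of the pathway, and MCC is known for low class I display, part of which is reversible.

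RNAs of the heavy chains *HLA-B* and *HLA-C* and of the light chain *B2M* were abundant in both IPs. Those of the transporter subunits *TAP1* and *TAP2* and of the immunoproteasome subunits *PSMB8* and *PSMB9* were nearly absent. *HLA-C*, *B2M* and *HLA-B* stood at 225 to 550 TPM, a level scaled to gene length and library size, in all 6 libraries. *HLA-E* and *TAPBP* stood between 4.72 and 18.4 TPM, and *TAP1*, *TAP2*, *PSMB8* and *PSMB9* between 0 and 0.3 TPM. Of the 5 members with enough counts to be tested, 0 were called higher and 0 lower in the IGF2BP3 IP (edgeR quasi-likelihood test, fold change of at least 1.5 and Benjamini-Hochberg adjusted p under 0.05). Over all RNAs the same rule called 1.16% of 14507 higher and 0% lower. Among the members, 1 (*TAPBP*) had an unadjusted p under 0.05 in edgeR, as did 12.8% of all tested RNAs, and DESeq2, which called 2.22% of its 12640 RNAs higher, also called 0.

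**Figure D1:**
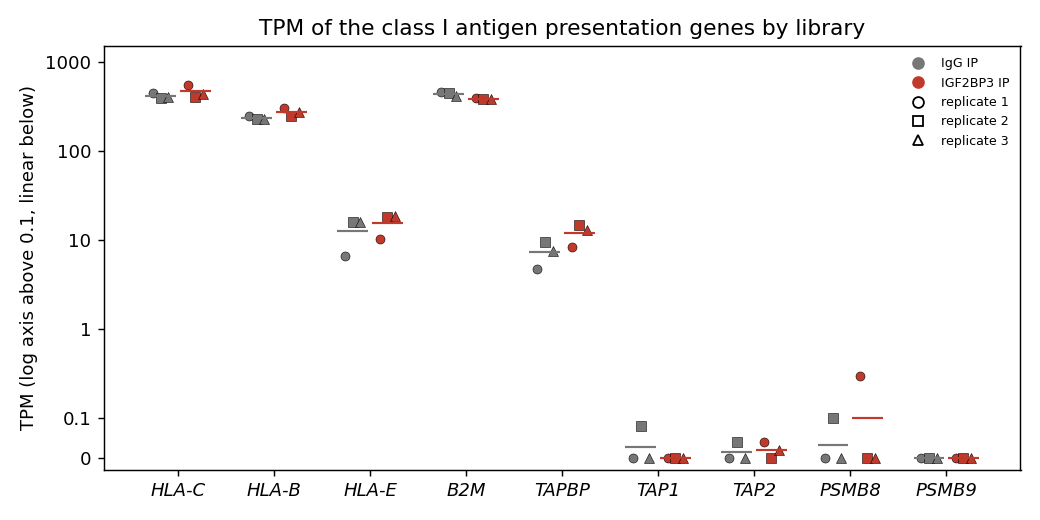
TPM of each member in every library, on an axis that is logarithmic above 0.1 and linear below; grey marks are IgG IP, red marks IGF2BP3 IP, shapes are replicate numbers and bars are means of 3. *HLA-C*, *HLA-B* and *B2M* sit between 225 and 550 TPM, *HLA-E* and *TAPBP* between 4.72 and 18.4, and the other 4 members at or near 0.

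The libraries held 9758759 to 14886414 counts on genes. In both groups replicate 1 stood apart from replicates 2 and 3, with a chi-square per degree of freedom of 16.4 to 19.7 for pairs with replicate 1 against 2.13 and 3.06 for the other pairs. No pair differed by less than sampling noise, so every library counted as 1 replicate. All 10 MCC markers on the list were tested, among them *ATOH1*, a Merkel cell transcription factor, at 338 to 545 TPM, and *KRT20*, a keratin used in MCC diagnosis, at 430 to 633 TPM. Leukocyte markers, which matter here because leukocytes express the whole pathway strongly, summed to 0.168 to 0.67 CPM, counts scaled to library size, with 0 of 7 tested and *PTPRC* and *CD3E* at 0. Fibroblast markers *COL1A1*, *COL1A2* and *LUM* had at most 2 counts a library, *DCN* had 479 to 762, the keratinocyte markers *KRT5* and *KRT14* had 4 to 11 and 0, and the melanocyte markers *PMEL* and *MLANA* had 0 to 13 and 0.

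The heavy chains *HLA-B* and *HLA-C*, which present peptides to CD8+ T cells, are neighbors on chromosome 6 of GRCh38. *HLA-C* lies at chr6:31268749-31272130 and *HLA-B* at chr6:31353872-31367067, both on the minus strand with 8 exons. The CCAAT box nearest the RefSeq start, part of the class I promoter to which the NF-Y complex binds, is shown for both to let their shared sequence be seen, in capitals, on the strand of the gene.
*HLA-B*, chr6:31357219-31357248: atatctagagaagCCAATcagcgtcgccgc
*HLA-C*, chr6:31272132-31272161: ggttctagagaagCCAATcagcgtctccgc
Both matches lie at position -56 from the RefSeq start. For *HLA-B* that start, and with it the stretch shown, lies inside the gene coordinates given above. CCAAT, searched on both strands, occurred in 34.6% of 35116 RefSeq promoter windows of 300 bases, and these windows of *HLA-B* and *HLA-C* held 3 and 4 matches.

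The *HLA-C* RNA had the highest level of the heavy chains. It gave 447, 395 and 400 TPM in IgG IP replicates 1 to 3 and 550, 406 and 436 TPM in IGF2BP3 IP replicates 1 to 3. The groups overlapped, and replicate 1 was the highest library in each. Normalized CPM were 632, 397 and 401 in the IgG IP (476 ± 134.5, SD, n = 3) and 674, 379.8 and 417 in the IGF2BP3 IP (490.2 ± 159.9, SD, n = 3). The log2 fold change was 0.04 (SE 0.24, 95% interval -0.50 to 0.59, edgeR adjusted p = 0.968), and the exact two-sided permutation test over libraries gave p = 0.8. With 3 libraries against 3 that test cannot go below 0.1.

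*HLA-B* followed the same pattern at a lower level. It gave 247, 225 and 229.6 TPM in the IgG IP, against 306, 247 and 269 TPM in the IGF2BP3 IP. Its CPM were 351, 212 and 224 in the IgG IP (262 ± 77.1, SD, n = 3) against 378, 216 and 242 in the IGF2BP3 IP (279 ± 87.2, SD, n = 3). The log2 fold change was 0.09 (SE 0.24, 95% interval -0.45 to 0.64, edgeR adjusted p = 0.919, exact permutation p = 0.6). Replicate 1 was the highest library of each group, and the sign of the difference turned for *HLA-B* and for *HLA-C* when single libraries were left out or GC content was corrected. Within a library *HLA-C* over *HLA-B* counts were 1.80, 1.88 and 1.79 in the IgG IP, against 1.78, 1.76 and 1.73 in the IGF2BP3 IP. The mean log2 difference was -0.055 (exact permutation p = 0.1, the smallest possible). The groups did not overlap, but their nearest values were 1.79 and 1.78. How often other gene pairs part in this way was not computed, so the ratio is a description only. Counts of *HLA-B* over *HLA-E* spread more widely, from 7.1 to 19.

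*HLA-E*, at chr6:30489509-30494194 on the plus strand, encodes a heavy chain that carries signal peptides of other class I molecules and is read by receptors of natural killer cells. Its TPM were 6.64, 15.9 and 15.7 in the IgG IP, against 10.2, 17.98 and 18.4 in the IGF2BP3 IP. Replicate 1 was the lowest library of each group, the reverse of *HLA-B* and *HLA-C*, and the groups overlapped. The CPM were 18.4, 27.1 and 26.3 in the IgG IP (23.9 ± 4.78, SD, n = 3) against 24.7, 30.4 and 32.2 in the IGF2BP3 IP (29.1 ± 3.93, SD, n = 3). This gave a log2 fold change of 0.28 (SE 0.17, 95% interval -0.11 to 0.66, edgeR adjusted p = 0.543, exact permutation p = 0.3). All 3 same-numbered pairs were higher in the IGF2BP3 IP, by 0.42, 0.17 and 0.29 on the log2 scale, a pattern that 25.1% of tested RNAs shared.

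The light chain *B2M* pairs with every classical and nonclassical heavy chain and lies outside the MHC at chr15:44711358-44718851. Its deposited levels were 453, 443 and 411 TPM in the IgG IP, against 391, 382 and 377 TPM in the IGF2BP3 IP. Every IGF2BP3 IP library was below every IgG IP library on this scale, as was the case for 1.07% of tested RNAs, while the median log2 difference of TPM over all RNAs was 0.11 on the log2(TPM + 1) scale. On the CPM scale the values were 337, 224.5 and 222 in the IgG IP (261 ± 65.9, SD, n = 3) against 253, 189.9 and 196 in the IGF2BP3 IP (213 ± 35.0, SD, n = 3), and the groups overlapped because IGF2BP3 IP replicate 1 lay above IgG IP replicates 2 and 3. *B2M* was the only tested member with a negative log2 fold change, at -0.295 (SE 0.18, 95% interval -0.69 to 0.10, edgeR adjusted p = 0.533, exact permutation p = 0.3). All 3 same-numbered pairs were lower in the IGF2BP3 IP, by -0.42, -0.24 and -0.19 on the log2 scale, as 23.5% of tested RNAs were.

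Whether libraries of the same number were more alike across the groups than other libraries was not tested. A model that held the replicate number as a block lowered the adjusted p below 0.05 for *B2M*, *HLA-E* and *TAPBP*. In that fit the log2 fold change was -0.281 for *B2M* (edgeR with replicate block, adjusted p = 0.0013) and 0.28 for *HLA-E* (adjusted p = 0.039). Neither reached the 1.5-fold minimum, so neither was called. With a GC correction added to the block the values were -0.156 for *B2M* (adjusted p = 0.052) and 0.199 for *HLA-E* (adjusted p = 0.17), so neither p stayed under 0.05. An adjusted p under 0.05 was reached by 16.2% of all tested RNAs in the blocked fit, 10.9% higher and 5.23% lower. DESeq2 with the block gave an adjusted p of 0.0011 for *B2M* and 0.27 for *HLA-E*. With the block, *HLA-B* and *HLA-C* had adjusted p-values of 0.32 and 0.77 in edgeR.

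The balance of heavy chain to light chain RNA was taken within each library, a ratio chosen after the values were seen. Counts of *HLA-B* over those of *B2M* were 1.04, 0.942 and 1.01 in the IgG IP, against 1.49, 1.14 and 1.24 in the IGF2BP3 IP. The mean log2 difference was 0.365, and the groups did not overlap. For *HLA-C* over *B2M* the ratios were 1.87, 1.77 and 1.80 against 2.66, 2 and 2.13, a log2 difference of 0.31. Since both ratios were chosen for their values, they are descriptions without a test. The canonical *B2M* transcript has a GC content of 39.1% against 58.9% for *HLA-B* and 60.1% for *HLA-C*. With a correction for GC content the log2 fold changes were -0.163 for *B2M*, -0.053 for *HLA-B* and -0.115 for *HLA-C*, a smaller gap. Whether GC content accounts for the difference between light and heavy chains was not tested.

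**Figure D2:**
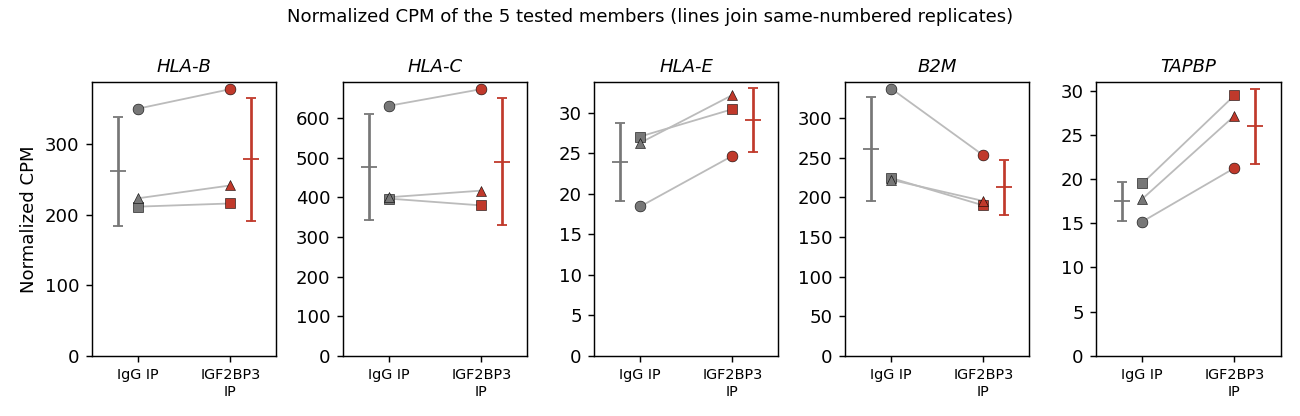
Normalized CPM of the 5 tested members, each panel with its own axis from 0; points are libraries, lines join replicates of the same number, and the bars beside them are means with SD (n = 3). *TAPBP* is the only panel in which all IGF2BP3 IP libraries (21.2 to 29.5 CPM) lie above all IgG IP libraries (15.2 to 19.5 CPM).

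*TAPBP* encodes tapasin, which bridges the TAP transporter and the empty class I molecule and helps select peptides. It lies at chr6:33299694-33314284 on the minus strand with 8 exons. *TAPBP* CPM were 15.2, 19.5 and 17.8 in the IgG IP (17.5 ± 2.18, SD, n = 3) and 21.2, 29.5 and 27.2 in the IGF2BP3 IP (26.0 ± 4.24, SD, n = 3). Every IGF2BP3 IP library was above every IgG IP library, which held for 12.0% of all tested RNAs. The IGF2BP3 IP level was 1.48-fold the IgG IP level, a log2 fold change of 0.565 (SE 0.16, 95% interval 0.21 to 0.92). It did not pass, with an unadjusted p of 0.0057 and an adjusted p of 0.149 in edgeR and an exact permutation p of 0.1.

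*TAPBP* was the member nearest the threshold, and its adjusted p, more than its fold change, moved with the treatment of replicate 1. The pair differences were 0.49, 0.60 and 0.61 on the log2 scale. With the replicate block the edgeR log2 fold change was 0.571, just under the 1.5-fold minimum of 0.58. The adjusted p with the block was 0.00018 in edgeR and 0.012 in DESeq2. In the blocked edgeR fit 3.56% of tested RNAs were called higher and 0.103% lower. With a GC correction the *TAPBP* value was 0.456 (edgeR adjusted p = 0.29). With the GC correction and the block it was 0.462 (edgeR adjusted p = 0.0017), also below the minimum. Without replicate 1 of both groups the log2 fold change was 0.603 with an edgeR adjusted p of 0.00085, which passed both thresholds. That fit, chosen after seeing the data, called 466 RNAs higher and 8 lower, against 169 and 0 in the main fit. TPM, made with another method, overlapped between the groups, at 4.72, 9.58 and 7.44 in the IgG IP, against 8.24, 14.87 and 12.8 in the IGF2BP3 IP.

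The transporter subunits *TAP1* and *TAP2*, which together pump peptides into the endoplasmic reticulum, were close to absent. *TAP1* had 1 count, in IgG IP replicate 2, and 0 in the other 5 libraries. *TAP2* had 1 count, in IGF2BP3 IP replicate 3. A total of 1 count has an exact Poisson 95% interval of 0.0253 to 5.57 counts, and these intervals cover counting error only. *PSMB8*, a catalytic subunit of the immunoproteasome, had 0, 1 and 0 counts in the IgG IP, against 2, 1 and 0 in the IGF2BP3 IP, in all 4 counts (interval 1.09 to 10.2). *PSMB9*, another such subunit, had 0 counts of 73995904 over the 6 libraries, for which an upper limit of 3 counts gives 0.0405 CPM. These 4 genes did not pass the filter on low counts. Without that filter edgeR gave an adjusted p of 0.74 for *TAP1* and *TAP2* and 0.81 for *PSMB8*, and no fold change is given at so few counts. In pulled-down bulk RNA, fewer cells with a transcript and less transcript per cell cannot be told apart.

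These 4 genes form a cluster of 38 kb in the class II region of the MHC. *TAP2* lies at chr6:32821833-32838739, *PSMB8* at chr6:32840717-32844679, *TAP1* at chr6:32845209-32853816 and *PSMB9* at chr6:32844136-32859851, the last on the plus strand and overlapping its neighbors in the annotation. Whether reads were lost to overlapping annotation was not tested. The TPM, which were estimated separately, were at most 0.08 for *TAP1*, 0.04 for *TAP2*, 0.3 for *PSMB8* and 0 for *PSMB9*. The antisense RNA *PSMB8-AS1* had 0 or 1 count. Of the 38 protein-coding genes with a start within 500 kb of the *TAP1* start, 19 had 0 counts in all libraries, 23 had at most 10 and 10 had over 1000. Those at 0 included the class II genes *HLA-DRA*, *HLA-DRB1*, *HLA-DPA1* and *HLA-DPB1*, which are normally on in professional antigen presenting cells. The nearest abundant RNA was that of *BRD2*, a chromatin reader, 114.8 kb away with 15887 counts and a mean of 76.2 TPM. *TAPBP*, 460.5 kb away, lay among expressed genes such as *DAXX*, with 4333 counts, and *RPS18*, a ribosomal protein gene, with 89977.

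**Figure D3:**
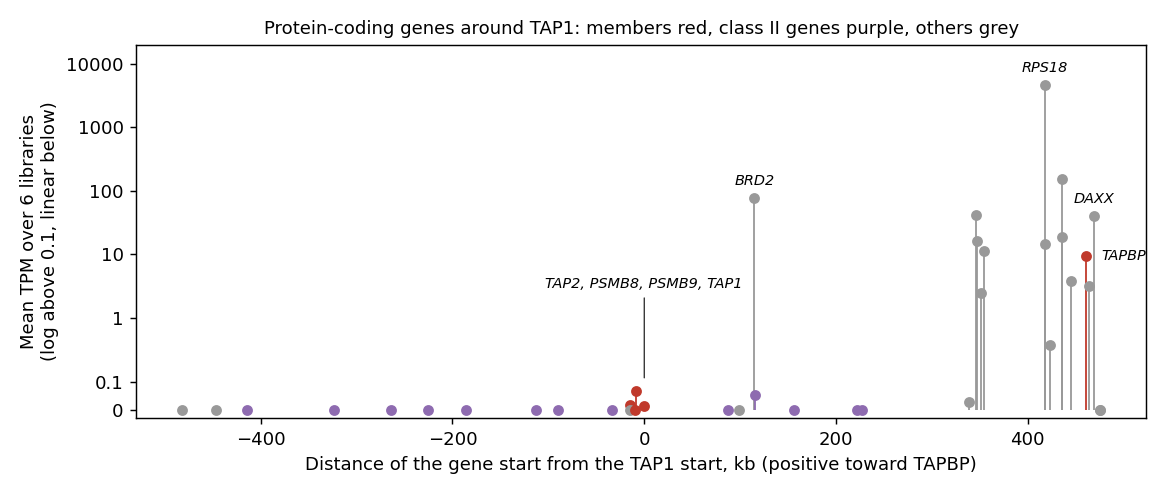
Mean TPM over 6 libraries of the 38 protein-coding genes within 500 kb of the *TAP1* start, on an axis that is logarithmic above 0.1 and linear below, against the distance of each gene start in kb. The cluster of *TAP2*, *PSMB8*, *PSMB9* and *TAP1* (red) lies at or near 0 among class II genes (purple), and *BRD2* at 76.2 TPM is the nearest abundant gene (grey).

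Interferon regulatory factors bind DNA with paired GAAA repeats, so RefSeq promoter windows (250 bases before the start to 50 after, GRCh38.p14) were searched on both strands for GAAANNGAAA. The motif occurred in 3.57% of 35116 windows. Windows were at hand for 8 of the 9 members, all except *HLA-E*. One match per gene is shown, on the strand of the gene and with the match in capitals, to set members with at most 4 counts beside *B2M* and *TAPBP*.
*TAP1*, chr6:32853819-32853848: aggcggccgcTTTCGATTTCgctttcccct
*TAP2*, chr6:32838778-32838807: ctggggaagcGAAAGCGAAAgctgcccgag
*PSMB8*, chr6:32844032-32844061: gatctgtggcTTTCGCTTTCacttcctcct
*TAPBP*, chr6:33314073-33314102: ggaggaaagtGAAAGTGAAAggaggaagag
*B2M*, chr15:44711369-44711398: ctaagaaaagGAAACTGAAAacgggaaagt
The motif was present both in genes with at most 4 counts in all, *TAP1*, *TAP2* and *PSMB8*, and in abundant *B2M* and in *TAPBP*. In *TAP1* and *PSMB8* the match is on the opposite strand and reads TTTCNNTTTC. *TAP1*, *TAPBP* and *B2M* each had 2 overlapping matches, and *TAP1* has another annotated start whose window held none. For *PSMB8* the match lies in the window of a start inside the gene. The window of its outermost start, at the end of the coordinates given above, held none. These letters were not found in the windows of *HLA-B*, *HLA-C* or *PSMB9*.

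By mean TPM over all libraries *HLA-C* ranked 304 among the genes of the table, *B2M* 330, *HLA-B* 510, *HLA-E* 6301 and *TAPBP* 7464. In the IgG IP the ranges of *HLA-C* (395 to 447 TPM) and *B2M* (411 to 453 TPM) overlapped, and in the IGF2BP3 IP *HLA-C* (406 to 550 TPM) was above *B2M* (377 to 391 TPM) in every library. *HLA-B* was below both in each group without overlap. *HLA-E* and *TAPBP* overlapped in both groups. The order of *HLA-C* and *B2M* in the IgG IP turned with the unit, from a log2 ratio of -0.07 by TPM to 0.156 by counts per kilobase of the canonical transcript.

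Constitutive proteasome subunits had higher TPM than their immunoproteasome counterparts. *PSMB5*, whose place *PSMB8* takes in the immunoproteasome, stood at 70.2 to 124 TPM, and *PSMB6*, which *PSMB9* replaces, at 99.6 to 143 TPM. *PSMB7* stood at 116 to 134 TPM and its counterpart *PSMB10* at 2.1 to 3.43 TPM, although *PSMB10* had only 0 to 4 counts and overlaps another annotated gene on the same strand. Each constitutive subunit was above its partner in every library. Between the IPs the log2 fold changes were 0.23 for *PSMB5* (SE 0.08, edgeR adjusted p = 0.258), -0.17 for *PSMB6* (adjusted p = 0.488) and -0.02 for *PSMB7* (adjusted p = 0.974).

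**Figure D4:**
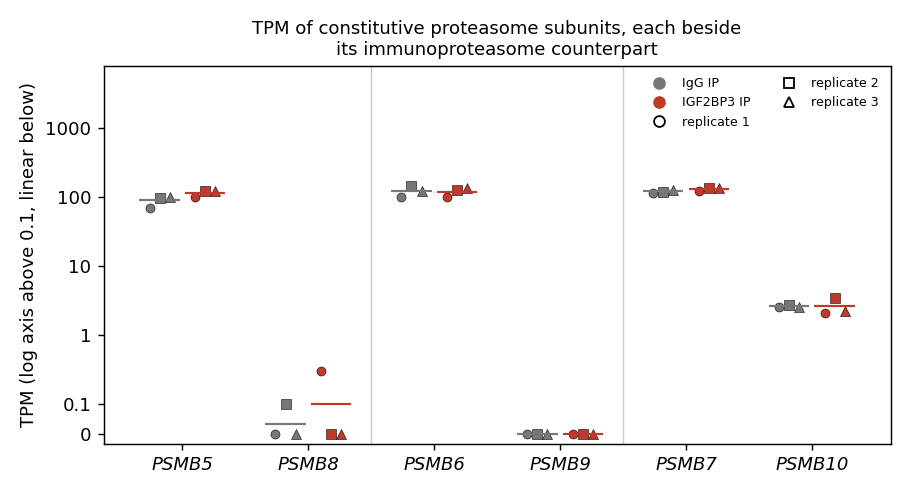
TPM of constitutive catalytic subunits, each beside the immunoproteasome subunit that replaces it, on an axis that is logarithmic above 0.1 and linear below; marks are libraries (grey IgG IP, red IGF2BP3 IP, shapes for replicates) and bars are means of 3. *PSMB5*, *PSMB6* and *PSMB7* lie between 70.2 and 143 TPM, *PSMB10* between 2.1 and 3.43, and *PSMB8* and *PSMB9* between 0 and 0.3.

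The rest of the pathway was taken from lists of 60 further genes, of which 44 had enough counts to be tested and 0 were called in either direction, against 1.16% higher and 0% lower over all RNAs. Unadjusted p-values under 0.05 were seen for 5 of the 44 in edgeR, near the 12.8% of all tested RNAs. Their log2 fold changes ran from -0.479 to 0.843 with a median of -0.021, beside a median of -0.006 over all tested RNAs. With the replicate block 0 of them were called as well.

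Of the loading chaperones, which hold heavy chains until a peptide binds, 4 of 4 were tested. *CALR*, calreticulin, had 760 ± 128.5 CPM in the IgG IP and 752 ± 121 CPM in the IGF2BP3 IP (SD, n = 3), a log2 fold change of -0.02. *CANX*, calnexin, had a log2 fold change of -0.03, *PDIA3*, the disulfide isomerase of the loading complex, one of -0.04 and *TAPBPL*, the tapasin-related peptide editor TAPBPR, one of 0.17, with edgeR adjusted p-values from 0.877 to 0.981.

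Peptide trimming enzymes gave 4 of 5 tested, from *TPP2*, tripeptidyl peptidase, at -0.145 to *THOP1*, a cytosolic oligopeptidase, at 0.21 (log2). *ERAP1*, which trims peptides in the endoplasmic reticulum, had 44 to 94 counts and *ERAP2* 0 to 3. Both were chosen for mention after their values were seen. Of the proteasome activator and assembly genes, *POMP*, an assembly chaperone, had -0.218 and *PSME3*, a nuclear activator, 0.02. Among class I-like molecules, *FCGRT*, the neonatal Fc receptor chain that also binds beta-2-microglobulin, had a log2 fold change of 0.28 (edgeR adjusted p = 0.443) and *MICB*, a stress ligand of the receptor NKG2D, 0.01. On the separate list of other class I heavy chains, *HLA-F* had 0 or 1 count and *HLA-G* 0.

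Of the transcription regulators of class I genes, 11 of 12 were tested. *NLRC5*, the class I transactivator, had the largest log2 fold change of the pathway lists, 0.84, but only 5 to 21 counts a library (SE 0.43, 95% interval -0.12 to 1.81, edgeR adjusted p = 0.461). *RFXAP*, a subunit of the RFX complex at class I and class II promoters, was at -0.352 (adjusted p = 0.491). The NF-kappa-B subunit gene *NFKB1* was the 1 regulator not tested, at 0 to 2 counts, and was chosen for mention after its values were seen.

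All 10 interferon signaling genes on the list were measured well enough to be tested. *STAT2* had a log2 fold change of 0.52 (SE 0.21, edgeR adjusted p = 0.347) and *IRF9*, its partner in the complex that responds to type I interferon, one of -0.48 on 3 to 16 counts (SE 0.62, adjusted p = 0.802). The RNA of *IRF1*, a transcription factor that drives class I genes, had 11 to 26 counts a library and was chosen for mention after its values were seen. The receptor and signaling RNAs were present in libraries in which *TAP1* and *PSMB9*, both textbook interferon gamma targets, had 1 and 0 counts. Whether these levels are linked was not tested.

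Polycomb genes, whose complexes are known to silence class I pathway genes in neuroendocrine tumors, were all tested. *EZH2*, the methyltransferase, had 85.6 ± 2.23 CPM in the IgG IP and 85.6 ± 2.84 CPM in the IGF2BP3 IP (SD, n = 3) with a 95% interval of -0.17 to 0.17 for the log2 fold change. *EED* had a log2 fold change of -0.185 (edgeR adjusted p = 0.454). Of the 8 class II genes 0 could be tested. *HLA-DMA*, with 4 to 14 counts a library but only 0 to 0.19 TPM, was the highest of them in counts. Its start, 115.3 kb from that of *TAP1*, lies next to that of abundant *BRD2*. Whether its counts are linked to those of *BRD2* was not tested.

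**Figure D5:**
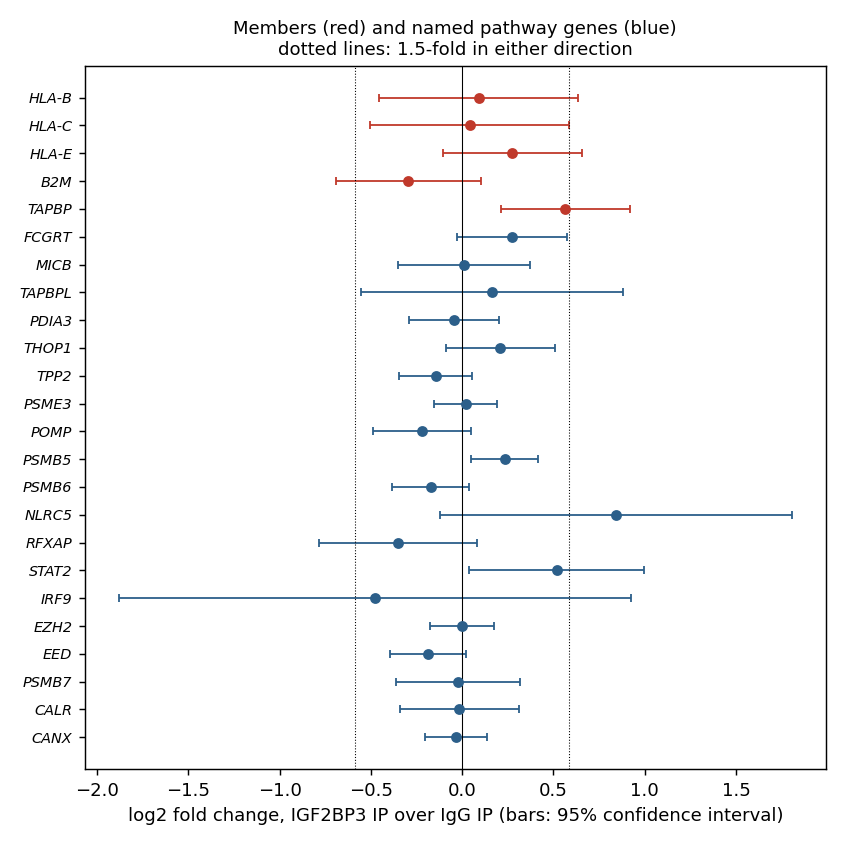
Log2 fold change of IGF2BP3 IP over IgG IP with 95% intervals from edgeR for the 5 tested members (red) and the tested pathway genes chosen by rule (blue); dotted lines mark 1.5-fold. All members except *TAPBP* (0.21 to 0.92) have intervals that include 0, and the widest intervals belong to the low-count genes *IRF9* and *NLRC5*.

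Sequence shared between genes was measured on the canonical transcripts, and its effect on the counts was not tested. Of the 100-base windows, 0% of *HLA-B*, 0.277% of *HLA-C*, 0.612% of *HLA-E* and 0% of *B2M* and *TAPBP* occurred in another gene. *TAP2* shared 34.7% with an annotated read-through gene that had 0 counts. *HLA-B* overlaps the pseudogene *DHFRP2* on its own strand, which had 7 to 15 counts. An unnamed pseudogene on the other strand had 11 to 66. Whether reads were counted by strand is not given in the sources used here. *HLA-B* and *HLA-C* are among the most variable human genes, and the share of reads lost to mismatches with the reference alleles was not tested.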

How the data were processed

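RIP-seq libraries (paired-end reads) were made by the authors from 3 IgG IP and 3 IGF2BP3 IP samples of WaGa cells and aligned to GRCh38 with STAR 2.7.9a. The authors deposited raw whole-number counts for each gene, and TPM and FPKM values from RSEM with GENCODE version 37. The program behind the counts is not given in the sources used here. The deposited FPKM were used only to check the order of levels. Groups and replicate numbers came from the sample titles. The study design calls the replicates independent, without naming separate cultures, so p-values measure the spread between these libraries.

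Genes of low count were removed by filterByExpr, TMM factors scaled the libraries, and edgeR 4.0.16 in R 4.3.3 fitted a quasi-likelihood model over the whole table in which condition was the sole term. Each standard error is the fitted log2 difference divided by the square root of its F statistic. DESeq2 1.42.0 and limma 3.58.1 were alternatives, and the edgeR script was first tested on simulated data. Deviations from the group mean correlated at 0.553, 0.264 and 0.222 between same-numbered libraries of the groups. Libraries of different numbers were not compared in this way, so these values do not settle whether the numbers mark pairs. The replicate block was therefore used as an alternative and not in the main fit. Annotation was GENCODE version 44, in which 60437 of 60655 genes were found.

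Members and gene lists were chosen with earlier results of these data known. Most genes named from the lists are those with the highest and the lowest log2 fold change of each list with at least 3 tested genes, the partners of *PSMB8*, *PSMB9* and *TAPBP*, cell type markers and genes overlapping a member. The genes *HLA-F*, *HLA-G*, *ERAP1*, *ERAP2*, *IRF1*, *NFKB1* and those of class II were named outside this rule. Some genes of the lists are not reported here.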

Additional observations from a re-analysis of the deposited data

How the results depend on the processing

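Of 105 combinations of the 5 tested members with 21 alternatives, 94 kept the direction and the side of the threshold. The exceptions were *TAPBP*, which passed without replicate 1 of both groups at 0.603 (so that 1 member was called; this alternative was chosen after seeing the data), and *HLA-B* and *HLA-C*, whose signs turned. *HLA-B* was at -0.053 with the GC correction, alone and with the replicate block, and ran from -0.193 to 0.359 when single libraries were left out, including -0.042 without IgG IP replicate 2 and -0.006 without IgG IP replicate 3. *HLA-C* was at -0.115 after GC correction and at -0.119 when the replicate block was added to it, and ran from -0.257 to 0.3, including -0.074 and -0.063 without IgG IP replicates 2 and 3. With single libraries left out *TAPBP* ran from 0.459 to 0.688, *HLA-E* from 0.128 to 0.378 and *B2M* from -0.438 to -0.068. With no filter on low counts the *TAPBP* adjusted p was 0.03 at a fold change below the minimum.

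Over all RNAs, 169 were called higher and 0 lower. DESeq2 called 281, no filter 359 and 1 lower, limma-trend on log2(TPM + 1) and on log2(TPM + 0.1) 0 each, the replicate block 517 and 15 lower, the replicate block in DESeq2 321 and 1 lower, the GC correction 110, and the GC correction with the block 346 and 24 lower. Leaving out single libraries gave 0 to 244, with 0 without IGF2BP3 IP replicate 2, 7 and 19 without IgG IP replicates 3 and 2, and 23 without IGF2BP3 IP replicate 3. Added after seeing the data, leaving out replicate 1 of both groups gave 466 and 8 lower, and replicate 1 as a term 537 and 23 lower. The *HLA-C* over *B2M* level in the IgG IP moved to 0.156 by counts per kilobase.

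Of 396 combinations for 19 other named genes 348 stayed the same and 48 turned sign, none past the threshold. limma-trend moved the median of all genes by 0.11 and 0.135 for pseudocounts of 1 and 0.1. In that order of pseudocounts it turned *PDIA3* (0.049, 0.05), *TPP2* (0.033, 0.033), *IRF9* (0.431, 0.512), *EZH2* (0.117, 0.12), *PSMB7* (0.11, 0.111), *CALR* (0.134, 0.134) and *CANX* (0.174, 0.174). Library totals turned *EZH2* (0.042), *PSMB7* (0.025), *CALR* (0.03) and *CANX* (0.009). The GC correction turned *MICB* (-0.001), *PDIA3* (0.028), *EZH2* (0.056) and *CANX* (0.081), and together with the replicate block *TAPBPL* (-0.011), *PDIA3* (0.03), *EZH2* (0.056) and *CANX* (0.082). *MICB* was at -0.002 with RLE factors and -0.003 with no filter, and *EZH2* at 0.001 with a minimum of 10 counts and 0.0 with the replicate block. Leaving out single libraries gave ranges of -0.06 to 0.096 for *MICB*, 0.002 to 0.421 for *TAPBPL*, -0.129 to 0.03 for *PDIA3*, -0.021 to 0.052 for *PSME3*, -0.04 to 0.021 for *EZH2*, -0.129 to 0.154 for *PSMB7* and -0.155 to 0.134 for *CALR*. Without replicate 1 of both groups *TAPBPL* was at -0.002, *EZH2* at 0.021 and *PSMB7* at 0.046. The cause of these turns was not tested. At this depth *TAP1*, *TAP2*, *PSMB8* and *PSMB9* did not pass the main filter, and *PSMB9* could not be fitted under any alternative.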
